A study of Mus musculus with 4 samples.

Results

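The Serpin family was followed in the liver of C57BL/6N mice, as every gene of the array whose name begins with Serpin. Of 62 such genes, read by 79 probes, 45 were well above background on at least 1 of 4 arrays and are described here, out of 22671 genes measured in all. The groups were livers labelled Pnpla7-/- (KO) and Pnpla7+/+ (WT) at 6 weeks of age, and KO and WT at 3 weeks. PNPLA7 is an enzyme of the patatin-like family that cleaves lysophosphatidylcholine. Each group was 1 one-colour array, hybridised with RNA pooled in equal amounts from the livers of 5 animals. The sex of the animals and the part of Pnpla7 that was deleted are not given in the sources used here.

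Serpins are proteins with a shared fold that inhibit proteases by a suicide mechanism. An exposed reactive centre loop serves as bait, the protease cuts it, and the inhibitor then changes shape with the protease trapped. The liver secretes many of them into plasma, where they restrain clotting, fibrinolysis, complement and the elastase of neutrophils. A few have lost inhibition and carry hormones or fold collagen, and the Serpinb clade lacks a classical signal peptide and acts mostly inside cells.

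Signals are the processed intensity of a probe divided by the 75th percentile of its array. With 1 array per group no difference has a replicate check, so genes are counted at 2-fold and no single comparison has a test. Since 1 slide carried the whole set, the position of an array and its group cannot be told apart. Of 43020 spots on each array, between 28714 and 30697 were well above background and none was saturated. Probes printed as 10 spots put the SD of a log2 ratio of KO over WT at 0.118 for 6 weeks and at 0.0955 for 3 weeks; this is spread within arrays, not between pools, and it does not hold for dim probes. The Pnpla7 probe read 4.42 in the array labelled KO and 9.65 in WT at 6 weeks, and 6.70 in the array labelled KO and 7.54 in WT at 3 weeks. Which part of the gene it reads relative to the deletion is unknown, so it does not establish the genotype and every direction rests on the labels. Skeletal muscle genes moved with the labels: of 18 listed markers, 17 were at least 2-fold higher in KO at 6 weeks and 18 at 3 weeks. Their summed signal was 52.8 in KO and 2.94 in WT at 6 weeks, and 77.6 in KO and 2.25 in WT at 3 weeks. All 18 were well above background on both KO arrays, against 14 in WT at 6 weeks and 10 in WT at 3 weeks. Hepatocyte markers summed to 825 in KO and 743 in WT at 6 weeks, and to 772 in KO and 780 in WT at 3 weeks. The part of muscle RNA in the results below was not tested.

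Outside the Serpinb and Serpini clades, the liver showed most genes of the family on at least 1 array. Of 25 Serpina genes 23 were measured, 20 of them on all 4 arrays. Serpinc1, Serpind1, Serpine2, both Serpinf genes, Serping1 and Serpinh1 were measured as well. Among 27 Serpinb genes 13 were measured and 14 were not well above background on any array, and of the Serpini genes 1 of 2 was measured. On all 4 arrays 37 members were well above background. The mean signal was at least 10 times the 75th percentile for 17 members and at least 100 times for 6, while 13 stayed below 0.1.

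**Figure D1:**
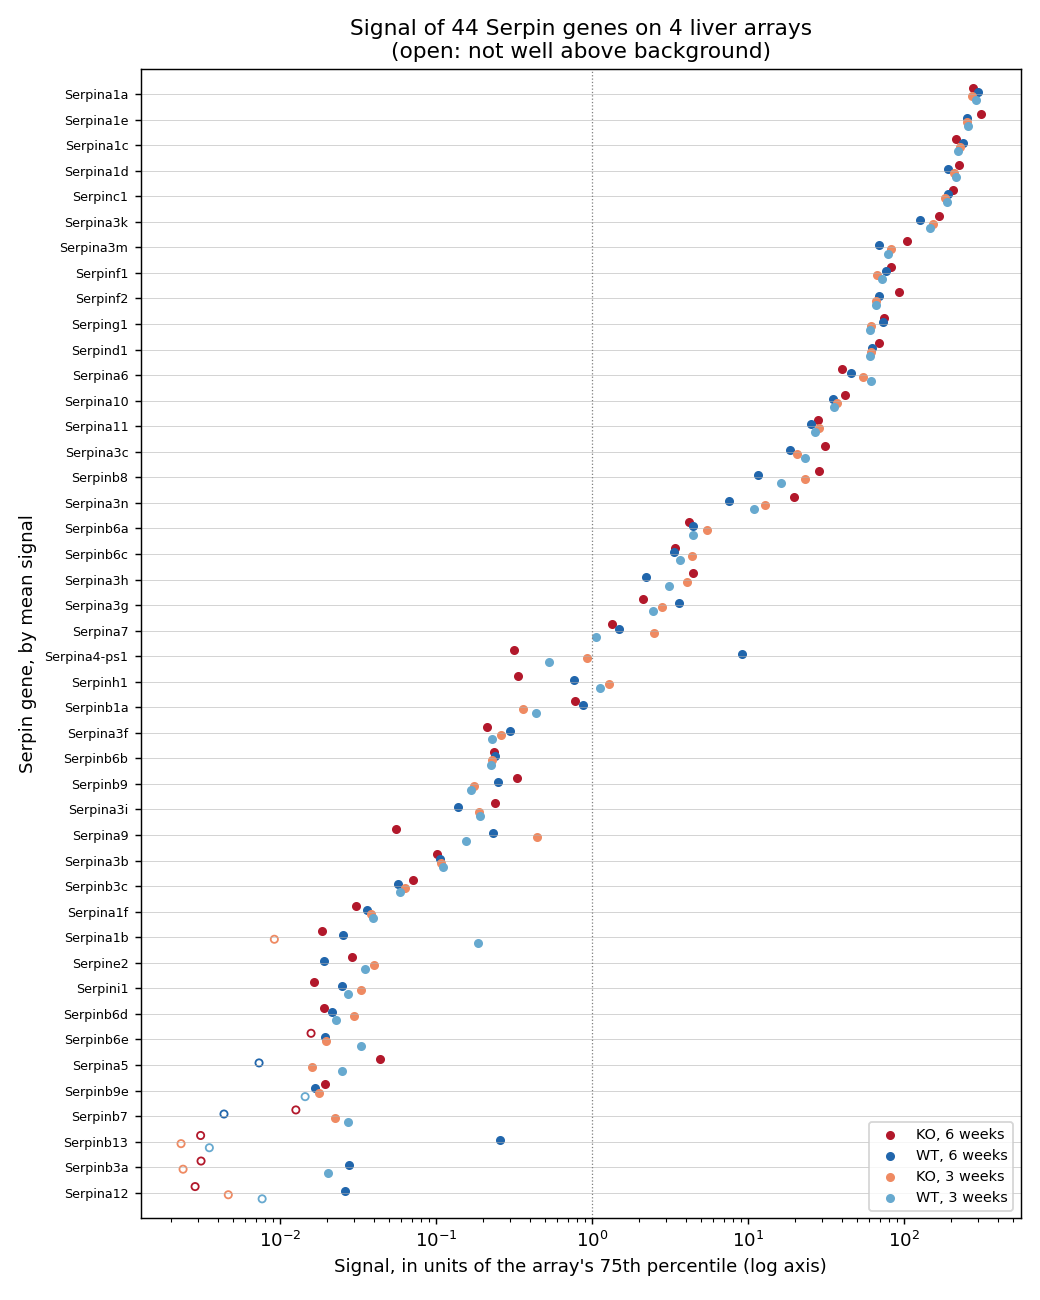
Signal of 44 measured Serpin genes on the KO and WT arrays at 6 and 3 weeks, as a multiple of the array's own 75th percentile on a log axis, with 1 point per array and open points where the probe was not well above background. The 4 points of most bright genes lie close together, while Serpina4-ps1, Serpinb13 and Serpina1b each have 1 array far to the right of the rest. Signals of different probes are not comparable levels, and the vertical order only helps to read the plot.

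At 6 weeks, 44 members had a ratio, of which 4 stood past 2-fold on the higher side and 5 on the lower side in the array labelled KO. Over all genes 6.49% were that much higher and 4.54% that much lower, so the family's shares of 9.09% and 11.4% rest on few genes. The higher ones were Serpina3n, Serpina3h, Serpinb8 and Serpina5, and the lower ones Serpina4-ps1, Serpina9, Serpinb13, Serpinb3a and Serpinh1. At 3 weeks, 3 of 43 members were at least 2-fold higher in the array labelled KO, among them Serpina9 and Serpina7, where the share of all genes was 2.86%. A further 2 members, Serpina1b and Serpinb3a, were at least 2-fold lower, against 2.9% of all genes. Serpinb3a was the only member past 2-fold in the same direction at both ages, and both of its values are bounds. Members measured on both arrays had a median log2 ratio of 0.10 at 6 weeks, beside 0.05 for all genes, and 0.05 at 3 weeks, beside -0.01 for all genes.

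**Figure D2:**
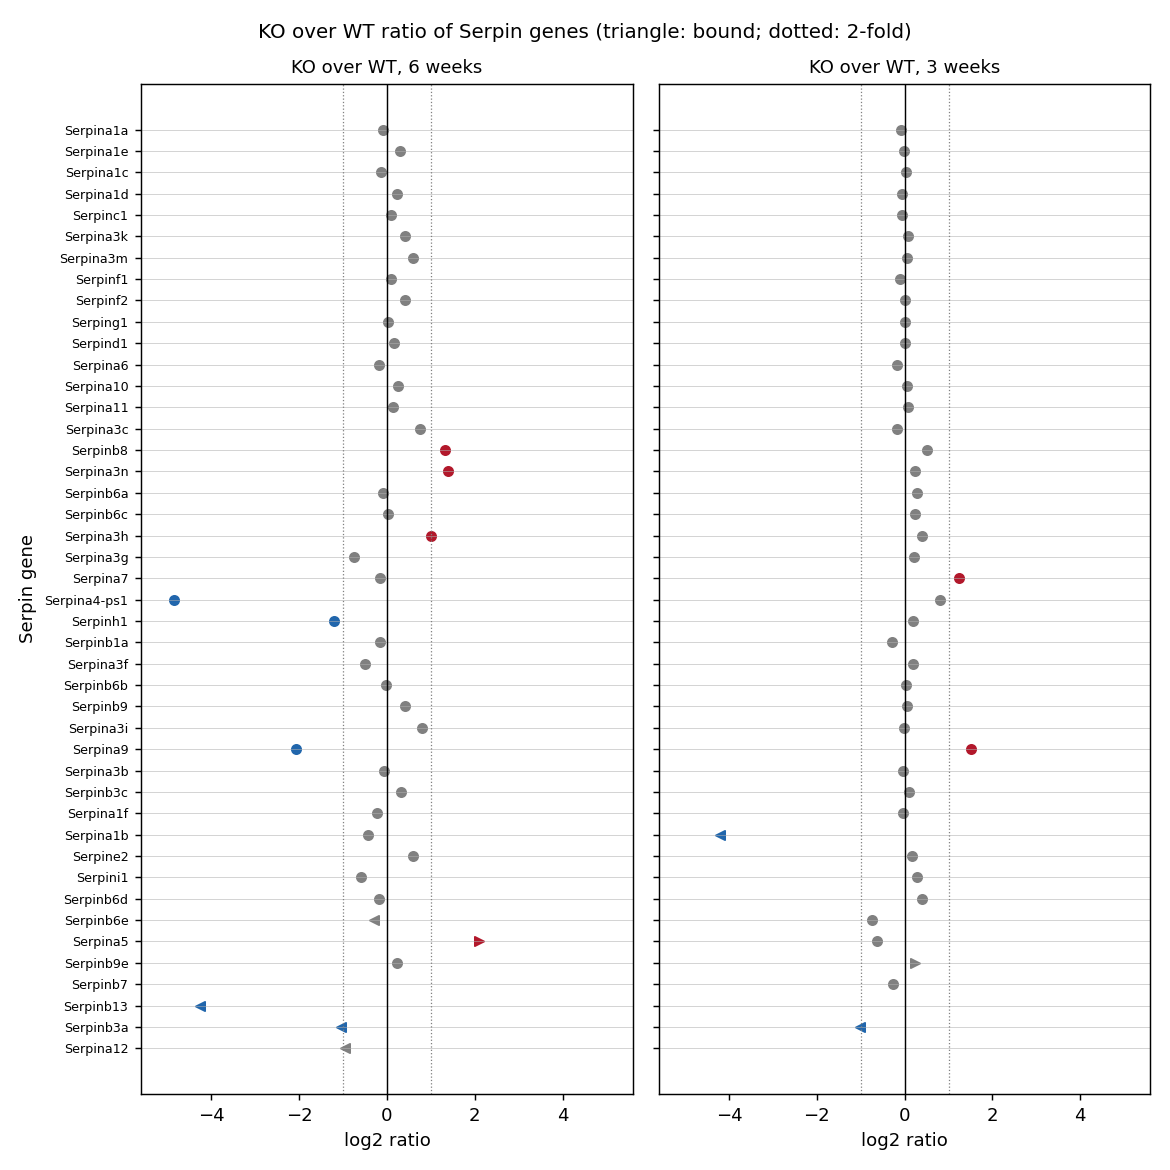
Log2 ratio of KO over WT for 44 measured Serpin genes at 6 weeks (left) and 3 weeks (right), with genes in the same order as in the plot of signals. Triangles are bounds where only 1 of the 2 arrays was well above background, and coloured symbols lie past 2-fold, marked by dotted lines. The bright genes at the top scatter close to 0 at 3 weeks, and Serpina3n and Serpinb8 lie past the right-hand line at 6 weeks.

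Most plasma serpins differed little between KO and WT. The 17 bright members, secreted apart from Serpinb8, had log2 ratios between -0.19 (Serpina6) and 1.40 (Serpina3n) at 6 weeks, with 14 above 0 and a median of 0.23. At 3 weeks their ratios lay between -0.18 and 0.51, the value of Serpinb8, with Serpina3n next at 0.23, and 10 were above 0 with a median of 0.02. The 6 hepatocyte markers had medians of 0.21 at 6 weeks and 0.07 at 3 weeks, so the bright serpins did not stand apart from them. The size of the shift at 6 weeks was thus small beside the 2-fold threshold for most of them. Of all 39 members measured on both arrays, dim ones included, 29 lay within 1.5-fold at 6 weeks. At that threshold 7 of 44 members with a ratio were higher and 7 lower in KO, where the shares of all genes were 12.4% and 10.4%.

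Inhibitors of thrombin and factor Xa differed little between the arrays. Serpinc1, antithrombin, which inhibits thrombin and factor Xa, read 206 in KO and 192 in WT at 6 weeks, and 183 in KO and 189 in WT at 3 weeks. Serpind1, heparin cofactor II, another inhibitor of thrombin, read 69.5 in KO and 62.3 in WT at 6 weeks, and 61.6 in KO and 60.8 in WT at 3 weeks. The 4 arrays thus stayed within a narrow band for both genes. Serpina10, which inhibits factor Xa together with protein Z, read 41.6 in KO and 35.2 in WT at 6 weeks, and 37.0 in KO and 35.7 in WT at 3 weeks. A dimmer probe of Serpina10 gave log2 ratios of KO over WT of 0.32 at 6 weeks and -0.03 at 3 weeks. Serpinf2, alpha-2-antiplasmin, the main inhibitor of plasmin, stood highest in KO at 6 weeks, with 92.9 against 69.7 in WT, while the 3-week arrays read 66.5 in KO and 66.2 in WT. The log2 ratio of KO over WT was therefore 0.41 at 6 weeks, beside 0.01 at 3 weeks.

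Complement and angiogenesis regulators were also flat between genotypes. Serping1, the C1 inhibitor, read 74.5 in KO and 73.7 in WT at 6 weeks, and 61.4 in KO and 60.8 in WT at 3 weeks, so that both 6-week arrays were above both 3-week arrays by a log2 ratio of 0.28. A dimmer second probe of Serping1 gave log2 ratios of KO over WT of -0.34 at 6 weeks and -0.03 at 3 weeks, and its age ratio was -0.08 in KO and 0.24 in WT, so the age difference was not shared by both probes. Serpinf1, pigment epithelium-derived factor, which is not a protease inhibitor, read 82.1 in KO and 76.6 in WT at 6 weeks, and 67.1 in KO and 72.0 in WT at 3 weeks. Its second probe gave a log2 ratio of KO over WT of 0.09 at 6 weeks and -0.06 at 3 weeks, close to the 0.10 and -0.10 of the brighter probe.

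The hormone carriers went their own ways. Serpina6, corticosteroid-binding globulin, read 40.03 in KO and 45.6 in WT at 6 weeks, and 54.5 in KO and 61.7 in WT at 3 weeks. KO was thus below WT at both ages, by log2 ratios of -0.19 and -0.18, and 6 weeks was below 3 weeks in both genotypes, by -0.45 in KO and -0.44 in WT. The second probe of the gene had the same order of the 4 arrays, with log2 ratios of KO over WT of -0.30 at 6 weeks and -0.25 at 3 weeks. Serpina7, thyroxine-binding globulin, lies on the X chromosome and read 1.34 in KO and 1.49 in WT at 6 weeks, and 2.50 in KO and 1.07 in WT at 3 weeks. The KO array at 3 weeks was the highest of the 4, 2.34-fold above WT, and the rest lay within a narrower band. Serpina11, a further secreted member, read 28.1 in KO and 25.4 in WT at 6 weeks, and 28.6 in KO and 26.9 in WT at 3 weeks. The dimmer Serpina11 probe gave log2 ratios of KO over WT of 0.15 at 6 weeks and 0.07 at 3 weeks.

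Serpina1a to Serpina1e are the mouse copies of alpha-1-antitrypsin, the plasma inhibitor of neutrophil elastase. They sit in 1 cluster on chromosome 12, and probes may read several of them: the accessions behind the Serpina1c probe also name Serpina1a and Serpina1b, and those behind 1 Serpina1d probe also name Serpina1b. Between the brightest probes of Serpina1a and Serpina1c, 50 of 51 overlapping bases were identical. The stretches below, from the second probes of Serpina1a and Serpina1e, show how alike and how different the copies are around the part that encodes the reactive centre loop, the bait for the protease. Capitals mark the longest run that both share. They lie at chr12:105091979-105092038 (Serpina1a) and chr12:105185290-105185349 (Serpina1e), both on the minus strand of mm9.
Serpina1a: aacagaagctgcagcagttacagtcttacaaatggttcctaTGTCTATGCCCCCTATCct
Serpina1e: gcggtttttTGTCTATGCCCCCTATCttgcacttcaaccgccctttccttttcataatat

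All 7 probes of Serpina1a, Serpina1c, Serpina1d and Serpina1e read between 143 and 310 on every array, and none came near a 2-fold difference. The brightest Serpina1a probe read 277 in KO and 296 in WT at 6 weeks, and 273 in KO and 291 in WT at 3 weeks. The probe of Serpina1a shown above read 206 in KO and 178 in WT at 6 weeks, and 219 in KO and 221 in WT at 3 weeks, so the probes of this gene disagreed in sign at 6 weeks. The brightest Serpina1e probe read 310 in KO and 254 in WT at 6 weeks, and 255 in KO and 258 in WT at 3 weeks. Its other probe, shown above, was lower in KO at 6 weeks, with 217 against 245 in WT, and read 251 in KO and 260 in WT at 3 weeks. Again the sign at 6 weeks depended on the probe, with log2 ratios of 0.29 and -0.18. Serpina1c read 216 in KO and 239 in WT at 6 weeks, and 228 in KO and 223 in WT at 3 weeks. The brightest Serpina1d probe read 225 in KO and 192 in WT at 6 weeks, and 209 in KO and 217 in WT at 3 weeks. The second Serpina1d probe had the highest log2 ratio of the group at 6 weeks, 0.54, with 208 in KO and 143 in WT.

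The probe named Serpina1b stood apart from the other copies. It read 0.0186 in KO and 0.0252 in WT at 6 weeks, was not well above background in KO at 3 weeks, and read 0.186 in WT at 3 weeks. The WT array was therefore at least 18.3-fold above KO at 3 weeks, and the 6-week arrays were both near the lower limit of detection. This probe has no accession in the gene table used, and other Serpina1 probes whose accessions also name Serpina1b did not show that pattern. Serpina1f, a relative of the group expressed mainly in the epididymis, read between 0.0309 and 0.0395 on the 4 arrays.

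The Serpina3 genes, an expansion in mouse of the single human gene for alpha-1-antichymotrypsin, held 2 of the 4 members that were at least 2-fold higher in KO at 6 weeks. Of 11 Serpina3 genes on the array, 9 were measured, and their probes did not move together. In the array labelled KO, Serpina3n, Serpina3h, Serpina3i, Serpina3c, Serpina3m and Serpina3k were above WT at 6 weeks, and Serpina3g and Serpina3f were below it. Serpina3n, an acute phase protein secreted by hepatocytes, read 19.8 in KO and 7.52 in WT at 6 weeks, and 12.8 in KO and 10.9 in WT at 3 weeks. The ratio was 2.63-fold at 6 weeks and 1.18-fold at 3 weeks, and between ages KO was higher by a log2 ratio of 0.62 at 6 weeks while WT was lower by 0.54. Serpina3h read 4.48 in KO and 2.23 in WT at 6 weeks, and 4.08 in KO and 3.10 in WT at 3 weeks. That ratio of 2.004 at 6 weeks sat on the threshold. It lay under it in all 3 other normalizations, with log2 ratios of 0.94, 0.97 and 0.98. The remaining ways of processing the data repeat the value of its only probe and could not move it.

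The next 3 genes kept the same order of the 6-week arrays at smaller sizes. Serpina3c read 31.2 in KO and 18.5 in WT at 6 weeks, and 20.7 in KO and 23.2 in WT at 3 weeks. Serpina3m read 104 in KO and 69.2 in WT at 6 weeks, and 82.5 in KO and 79.6 in WT at 3 weeks. Serpina3k, contrapsin, which inhibits trypsin-like proteases, read 167 in KO and 126 in WT at 6 weeks, and 154 in KO and 146 in WT at 3 weeks. In each of them, the KO array at 6 weeks was the highest of the 4 arrays, with log2 ratios over WT of 0.76, 0.59 and 0.40. The brightest Serpina3i probe gave 0.79, reading 0.2395 in KO and 0.138 in WT at 6 weeks, and 0.190 in KO and 0.191 in WT at 3 weeks, and its dimmer probe gave 0.31. Serpina3b stayed between 0.102 and 0.111 on every array.

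Serpina3g, an intracellular inhibitor of lysosomal cathepsins, ran the other way. It read 2.12 in KO and 3.60 in WT at 6 weeks, and 2.82 in KO and 2.45 in WT at 3 weeks, so that the log2 ratio was -0.76 at 6 weeks, beside 0.20 at 3 weeks. Both probes named for its neighbour Serpina3f had the same signs, with log2 ratios of -0.50 and -0.34 at 6 weeks and 0.18 and 0.15 at 3 weeks. The accessions of the second, dimmer probe also name Serpina3h, whose own probe stood at 1.003 at 6 weeks. On mm9 this dimmer probe starts at chr12:105492556, near the Serpina3h probe at chr12:105491733. The other Serpina3f probe starts at chr12:105458989, so the 2 may not be readings of the same gene. Macrophage markers were also low in that array: 3 of 8 were at least 2-fold lower in KO at 6 weeks and none at 3 weeks. Their summed signal was 42.1 in KO and 76.1 in WT at 6 weeks, and 78.2 in KO and 86.0 in WT at 3 weeks. Their part in the Serpina3g difference was not tested, and fewer cells of a type and less RNA per cell cannot be told apart in pooled tissue.

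How well a probe separates neighbours can be read from the sequences of Serpina3h and Serpina3i, where capitals mark bases that differ between both genes. They encode the start of the reactive centre loop, lie at chr12:105491733-105491792 and chr12:105506705-105506764 on the plus strand of mm9, and share 51 of 57 overlapping bases. The first is the probe of Serpina3h, and the second the dimmer of the Serpina3i probes, whose log2 ratio at 6 weeks was 0.31 beside 1.003 for Serpina3h.
Serpina3h: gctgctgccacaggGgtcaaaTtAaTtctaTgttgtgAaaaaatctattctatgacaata
Serpina3i: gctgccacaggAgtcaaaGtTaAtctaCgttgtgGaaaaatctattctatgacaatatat

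**Figure D3:**
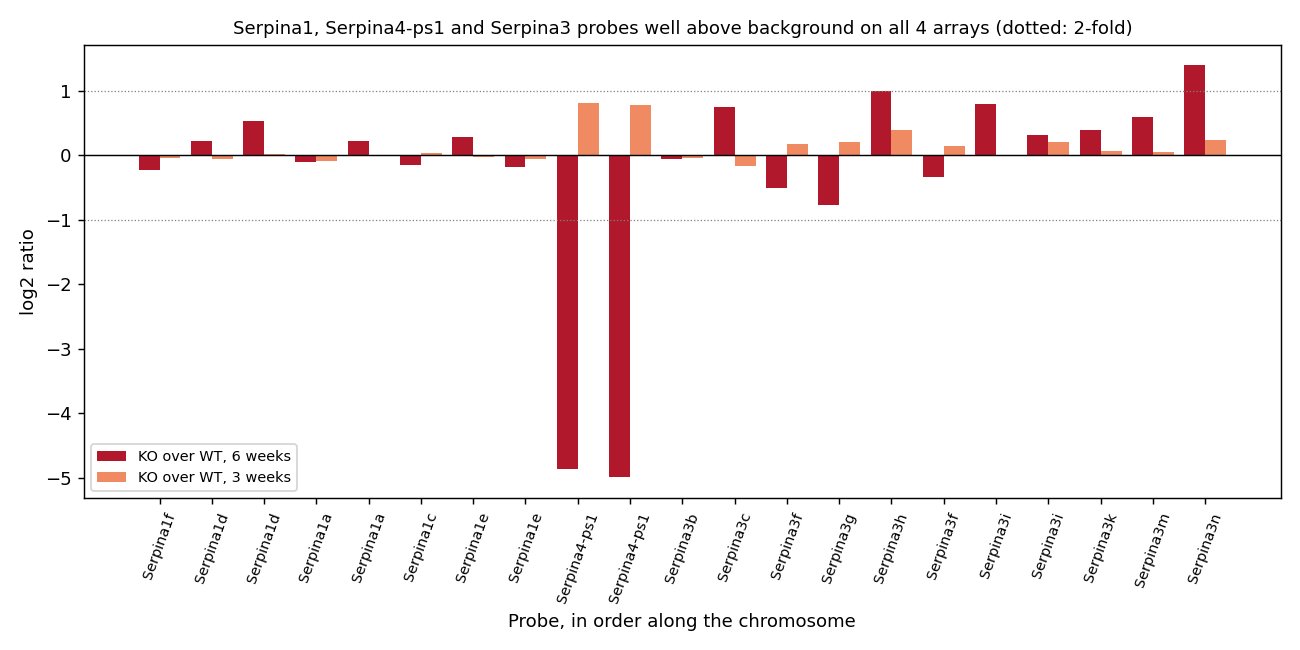
Log2 ratio of KO over WT at 6 weeks (dark bars) and 3 weeks (light bars) for each Serpina1, Serpina4-ps1 and Serpina3 probe that was well above background on all 4 arrays, in order along chromosome 12. Serpina3n reaches 1.40 at 6 weeks and both Serpina4-ps1 probes lie below -4.8, while no bar at 3 weeks passes 2-fold.

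Promoters of the Serpina3 genes are shown because neighbours moved in opposite directions at 6 weeks. The stretches run from 160 bases before the annotated start to the base before it, from RefSeq on build GRCm38.p6, and capitals mark the letters TTCNNNGAA, a core that STAT factors bind in acute phase genes. The motif reads the same on both strands. It occurred in 2726 of 32851 promoters, or 8.3%, and in 11 of 60 promoters of 51 Serpin genes, or 18.3%, each window running from 250 bases before the start to 50 after it. Of 8 Serpina3 genes with a promoter in the table, 3 held it: Serpina3f (chr12:104214384-104214543), Serpina3g (chr12:104235987-104236146) and Serpina3i (chr12:104262962-104263121), all on the plus strand. The window of Serpina3n (chr12:104406548-104406707, plus strand) held no match, although its log2 ratio at 6 weeks was the highest of these genes. The letters were thus in genes on either side of 0 and are a description only.
Serpina3f: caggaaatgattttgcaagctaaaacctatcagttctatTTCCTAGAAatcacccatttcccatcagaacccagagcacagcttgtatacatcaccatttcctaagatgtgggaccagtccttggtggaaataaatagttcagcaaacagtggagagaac
Serpina3g: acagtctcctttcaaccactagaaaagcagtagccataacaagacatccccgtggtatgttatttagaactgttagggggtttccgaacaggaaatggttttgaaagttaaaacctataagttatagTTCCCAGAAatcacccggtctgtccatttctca
Serpina3i: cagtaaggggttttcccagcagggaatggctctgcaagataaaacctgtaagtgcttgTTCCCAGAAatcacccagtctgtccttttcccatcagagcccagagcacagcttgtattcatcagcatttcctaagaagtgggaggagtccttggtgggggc
Serpina3n: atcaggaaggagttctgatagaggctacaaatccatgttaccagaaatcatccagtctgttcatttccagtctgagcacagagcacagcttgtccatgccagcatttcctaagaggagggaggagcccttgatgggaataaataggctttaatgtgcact

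Genes of the acute phase response and of glucocorticoid action moved in the same arrays as Serpina3n. The acute phase list has 26 members, of which 7 were past 2-fold in KO at 6 weeks, each of them upward, with a median log2 ratio of 0.51, and at 3 weeks none was higher and 2 were lower, with a median of 0.05. Saa1, serum amyloid A, read 145 in KO and 6.67 in WT at 6 weeks, and 13.6 in KO and 7.88 in WT at 3 weeks. Lcn2, lipocalin 2, read 9.62 in KO and 1.09 in WT at 6 weeks, and 5.77 in KO and 4.80 in WT at 3 weeks. Among 12 genes induced by glucocorticoids or fasting, 5 were at least 2-fold higher in KO at 6 weeks and none at 3 weeks, with medians of 0.83 and 0.23. The example of Fkbp5, a direct target of the glucocorticoid receptor, read 10.6 in KO and 3.86 in WT at 6 weeks, and 7.56 in KO and 7.35 in WT at 3 weeks. The corresponding medians over all genes with a ratio were 0.05 at 6 weeks and 0.00 at 3 weeks. These lists were chosen with earlier results of these data known, and their relation to the Serpina3 genes was not tested.

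Serpina4-ps1, a pseudogene related to kallistatin, had the largest difference between KO and WT among members measured on both arrays at 6 weeks. It was read by a pair of probes that are shifted along the same sequence and differ at 1 of 52 overlapping bases, given in capitals. The first lies at chr12:105325068-105325127 and the second at chr12:105325060-105325119, on the plus strand of mm9.
Serpina4-ps1, dimmer probe: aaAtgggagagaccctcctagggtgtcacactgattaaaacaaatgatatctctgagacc
Serpina4-ps1, brighter probe: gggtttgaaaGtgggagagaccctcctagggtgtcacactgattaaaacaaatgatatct

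The brighter probe read 0.317 in KO and 9.21 in WT at 6 weeks, and 0.937 in KO and 0.533 in WT at 3 weeks. The dimmer probe read 0.209 in KO and 6.65 in WT at 6 weeks, and 0.644 in KO and 0.374 in WT at 3 weeks. On both probes the WT array at 6 weeks was far above the rest, 29.1-fold over KO on the brighter one. The KO array was the lowest of the 4 at 6 weeks and the second highest overall at 3 weeks, with log2 ratios of KO over WT of -4.86 and 0.81. Since both probes overlap, they are not independent readings of the transcript. The 5 genes whose pattern over the 4 arrays was closest, chosen after this pattern had been seen, were A630052C17Rik, Fthl17a, Fjx1, Vmn2r121 and Nppb, at root mean square distances between 0.49 and 0.67 on the log2 scale among 2971 genes. Apart from WT at 6 weeks, these 5 genes read between 0.0133 and 0.0348, near the lower limit of detection. Their likeness thus rests on 1 raised array.

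Female-biased liver genes were mostly lower in KO at 3 weeks, and mixed at 6 weeks. Their summed signal was 707 in KO and 593 in WT at 6 weeks, and 361 in KO and 510 in WT at 3 weeks. Of 21 listed, 6 were at least 2-fold lower and 2 higher in KO at 6 weeks, and 10 were lower and none higher at 3 weeks, with medians of 0.00 and -0.99. Of 15 male-biased genes, 3 were higher and 1 lower in KO at 6 weeks, and 5 were higher and none lower at 3 weeks. The pools' sex is not given, and its part in the Serpin values was not tested.

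Serpine2, protease nexin-1, which inhibits thrombin and urokinase, read 0.0289 in KO and 0.0193 in WT at 6 weeks, and 0.0398 in KO and 0.0353 in WT at 3 weeks. It was dim on every array, and the 3-week value was above the 6-week value in both genotypes, with log2 ratios of 6 over 3 weeks of -0.47 in KO and -0.87 in WT.

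Serpinh1 is the collagen chaperone of the endoplasmic reticulum and no inhibitor. It read 0.335 in KO and 0.768 in WT at 6 weeks, and 1.29 in KO and 1.12 in WT at 3 weeks. KO was 2.29-fold below WT at 6 weeks, and the 6-week array was 3.85-fold below the 3-week array in KO and 1.46-fold below it in WT. The collagen genes Col1a1 and Col3a1 had the same order of signs. Col1a1 read 0.565 in KO and 1.13 in WT at 6 weeks, and 4.35 in KO and 3.43 in WT at 3 weeks. Col3a1 read 1.44 in KO and 3.27 in WT at 6 weeks, and 11.6 in KO and 11.2 in WT at 3 weeks. Both were thus lowest in KO at 6 weeks, with log2 ratios of KO over WT of -1.002 and -1.18 at that age. Of 11 stellate cell and fibroblast markers, 2 were at least 2-fold lower in KO at 6 weeks and 1 was higher, with a median log2 ratio of -0.38. The 2 lower ones were Col1a1 and Col3a1, while Col1a2, also in that list, was not among them. Between ages in KO 5 markers were lower, with a median of -0.80. The 11 markers summed to 57.1 in KO and 60.4 in WT at 6 weeks, and to 92.1 in KO and 80.7 in WT at 3 weeks. Their part in the Serpinh1 difference was not tested.

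Serpina9, Serpina5, Serpina12 and Serpini1 were dim. Serpina9, known in human as centerin of germinal centre B cells, read 0.0555 in KO and 0.233 in WT at 6 weeks, and 0.445 in KO and 0.155 in WT at 3 weeks. The order of KO and WT was opposite at the 2 ages, with log2 ratios of -2.07 and 1.52, and the KO arrays were the highest and the lowest of the 4. Serpina5, the protein C inhibitor, read 0.0438 in KO at 6 weeks, was not well above background in WT at 6 weeks, and read 0.0161 in KO and 0.0250 in WT at 3 weeks. KO was thus at least 4.29-fold above WT at 6 weeks, on signals near the lower limit of detection. Serpina12, vaspin, was well above background only in WT at 6 weeks, at 0.0261. Serpini1, neuroserpin, which inhibits tissue plasminogen activator, read 0.0166 in KO and 0.0248 in WT at 6 weeks, and 0.0329 in KO and 0.0272 in WT at 3 weeks. Its second probe was well above background only in KO at 3 weeks, at 0.0215.

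Among intracellular serpins, Serpinb8 was higher in KO at both ages. It read 28.6 in KO and 11.53 in WT at 6 weeks, and 23.1 in KO and 16.2 in WT at 3 weeks, ratios of 2.48 and 1.42. The probe, at chr1:109504865-109504924 on the plus strand of mm9, is unusual in sequence: 50 of its 60 bases are G or T, as in only 30 of 39429 probes of the array (0.0761%), and the next highest Serpin probe has 43. A stretch of 30 bases from it, at chr1:109504888-109504917, is shown with runs of TG in capitals, the longest of which has 7 units. Whether this probe read Serpinb8 alone was not tested.
Serpinb8: TGTGTGtaTGTGTGTGTGTGTGcctctgtg

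Serpinb1a, an inhibitor of neutrophil elastase and cathepsin G in the cytoplasm, differed more between ages than between genotypes on these arrays. It read 0.777 in KO and 0.871 in WT at 6 weeks, and 0.360 in KO and 0.438 in WT at 3 weeks, so both 6-week arrays were above both 3-week arrays, by log2 ratios of 1.11 in KO and 0.99 in WT. Serpinb9, the inhibitor of granzyme B, shared that order, with 0.333 in KO and 0.252 in WT at 6 weeks, and 0.174 in KO and 0.169 in WT at 3 weeks. Serpinb6a, an inhibitor of cathepsin G, read 4.19 in KO and 4.46 in WT at 6 weeks, and 5.45 in KO and 4.45 in WT at 3 weeks. It may not be separated from Serpinb6c on this array: its probe shares 39 of 42 overlapping bases with the brightest Serpinb6c probe and 55 of 59 with the dimmer one. The brightest Serpinb6c probe gave log2 ratios of KO over WT of 0.03 at 6 weeks and 0.24 at 3 weeks, beside -0.09 and 0.29 for Serpinb6a. Serpinb6b stayed between 0.225 and 0.238 on every array.

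Serpinb13, Serpinb3a and Serpinb7, known from squamous epithelia, were well above background on some arrays and not on others. Serpinb2, Serpinb3b, Serpinb3d, Serpinb5, Serpinb11 and Serpinb12 were not well above background on any array. Serpinb13, headpin, was well above background only in WT at 6 weeks, at 0.258, so that KO was at least 19.1-fold lower there. Serpinb3a, a mouse relative of the human squamous cell carcinoma antigens, was well above background only on the WT arrays, at 0.0278 at 6 weeks and 0.0204 at 3 weeks, and the log2 ratio of KO over WT was at most -1.04 at 6 weeks and at most -1.01 at 3 weeks. Serpinb3c, whose probe shares 43 of 48 overlapping bases with that of Serpinb3a, was printed as 10 spots and was well above background on all 4 arrays. Its spots averaged 0.0731 ± 0.0175 in KO and 0.0595 ± 0.0170 in WT at 6 weeks, and 0.0665 ± 0.0203 in KO and 0.0625 ± 0.0200 in WT at 3 weeks (SD over 10 spots of 1 array each). The overlap of these spots shows how far a dim probe varies within an array, with an SD of 0.611 for the log2 ratio of single spots at 6 weeks. Serpinb7 was well above background at 3 weeks alone, at 0.0225 in KO and 0.0272 in WT. Epidermal markers summed to 5.36 in KO and 6.33 in WT at 6 weeks, and to 6.03 in KO and 7.13 in WT at 3 weeks.

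Between ages, 2 of 42 members were at least 2-fold higher at 6 than at 3 weeks in KO (Serpina5 and Serpinb1a), against 6.02% of all genes, and 4 were lower, among them Serpina9, Serpinh1 and Serpina4-ps1, against 6.26%. In WT, 2 of 45 were higher (Serpina4-ps1 and Serpinb13), against 3.64% of all genes, and 4 were lower, among them Serpina1b, Serpina5 and Serpinb7, against 5.85%. Serpina4-ps1 and Serpina5 were past 2-fold in opposite directions in KO and WT. Fetal hepatocyte markers were lower with age in both genotypes, with summed signals of 5.76 in KO and 1.17 in WT at 6 weeks, and 97.2 in KO and 87.1 in WT at 3 weeks. Of the 45 measured members, 31 were not called past 2-fold in any of the 4 comparisons, some of them with only a bound or no ratio in part of these, such as Serpina12. The matching share of all genes was not computed, so this count does not set the family apart from other genes.

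**Figure D4:**
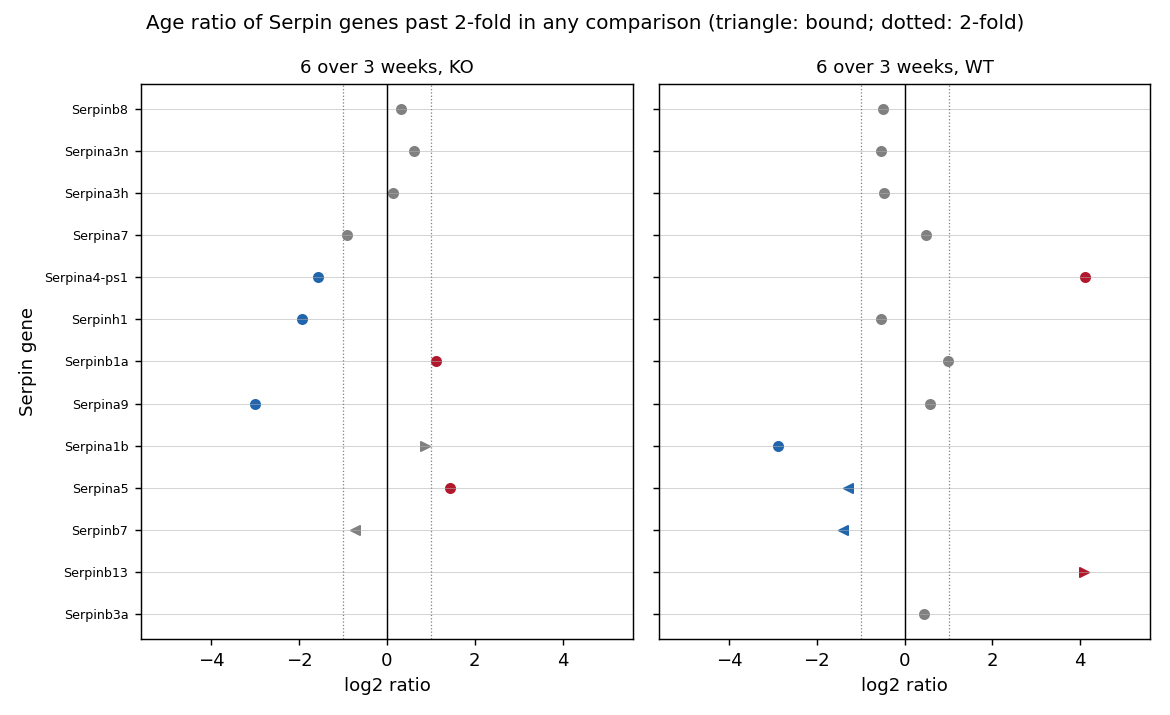
Log2 ratio of 6 over 3 weeks in KO (left) and WT (right) for 13 Serpin genes past 2-fold in any comparison, with triangles for bounds and dotted lines at 2-fold. Serpinb1a lies right of 0 in both panels, at 1.11 in KO and 0.99 in WT, and Serpina4-ps1 changes side, with -1.56 in KO and 4.11 in WT.

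A list of proteases, most of them serpin targets, was read as well. It also holds Mmp2, a metalloprotease, and Hp, haptoglobin, which is a relative of serine proteases without their activity. Of 30 listed, 1 was at least 2-fold higher in KO at 6 weeks, Prtn3, proteinase 3 of neutrophils, with a log2 ratio of 1.11, and none was past 2-fold at 3 weeks. Their median log2 ratio was 0.26 at 6 weeks and -0.04 at 3 weeks, so at 6 weeks it had the sign of the bright serpins' median of 0.23. F2, prothrombin, read 141 in KO and 123 in WT at 6 weeks, and 116 in KO and 119 in WT at 3 weeks. F10, factor X, read 103 in KO and 87.0 in WT at 6 weeks, and 81.1 in KO and 87.9 in WT at 3 weeks. Other families of protease inhibitors had 3 of 32 genes higher and 3 lower in KO at 6 weeks, against 6.49% and 4.54% of all genes. At 3 weeks 3 of 34 were higher and none lower, against 2.86% and 2.9% of all genes. Among the higher ones Spink1, a trypsin inhibitor, was higher at both ages, with 0.385 in KO and 0.114 in WT at 6 weeks, and 1.93 in KO and 0.872 in WT at 3 weeks. The rest of the higher ones, Timp4, Cst6 and Stfa1, were bounds on dim signals.

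No Serpin gene passed a test over both ages. The limma fit of age and genotype over the 4 arrays has 1 residual degree of freedom, and for genotype it called 0 of 22648 genes, with 1007 genes and 1 member, Serpinb3a, at an unadjusted p under 0.05. Serpinb3a was not well above background on either KO array, so its fit sets WT signals against background readings, and nothing is drawn from it. For age it also called 0 genes, with 2308 genes and 2 members, Serpinb1a and Serpinb9, at an unadjusted p under 0.05. Serpinb1a had an age effect of 1.05 ± 0.148 (SE) on the log2 scale, with a limma adjusted p of 0.438.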

How the data were processed

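Total RNA from liver was measured on 4 one-colour (Cy3) Agilent arrays, 1 per group. Agilent Feature Extraction 11.5.1.1 produced the deposited intensity values, as the submitters' processing notes state, and it subtracted the background, per the file headers. Flags that mark outlier spots and spots well above background hold other values, 0 or 1, in the deposited files. The authors' value table, an intensity over each array's 75th percentile, matched the scaled scanner signals (ratio 0.9998 to 1), so its scale is linear, it is uncentred and it is signal rather than a ratio. Its column medians were 0.0798 in KO and 0.0778 in WT at 6 weeks, and 0.0815 in KO and 0.0797 in WT at 3 weeks. The files place probes on mm9.

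The processed intensity was divided by the 75th percentile of all non-control spots of its array and taken to log2. Between 189 and 252 outlier spots per array were left out, and spots of a probe were averaged. A gene was read by its brightest probe, and other probes are given beside it for most measured genes with several. Of 39429 probes, 27508 were named by accession, 3544 by symbol and 404 by synonym in a RefSeq table, and 7973 kept the file's name; all 79 Serpin probes kept theirs. A ratio was formed if 1 or both of its arrays had the gene well above background. With 1 such array it is a bound: the dim side was set to its own signal or, if that was larger, to the lowest signal that was well above background there. Of 62 Serpin genes 51 have a promoter in the RefSeq table. limma 3.58.1 in R 4.3.3 gave Benjamini-Hochberg adjusted p-values over all genes; other steps used Python 3.11.15, numpy 2.4.6 and pandas 2.3.3. The fit was also run on simulated data with independent noise and differences set equal at both ages. That run cannot show how the fit handles differences that change with age.

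Values on all 4 arrays are given for the 15 brightest members and every member past 2-fold in any comparison, except that 1 member counted in the totals is not reported here; other names follow the lists. The members and lists were chosen with earlier results of these data known. Alternatives were other normalizations, filters, thresholds, probe summaries, outlier spots kept, the authors' table and other limma designs. The number of arrays limits the precision.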

Additional observations from a re-analysis of the deposited data

Results flagged for a closer look

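In 3 members the array labelled KO lay above WT at one age and below it at the other, with the ratios more than 4-fold apart. These differences between ages were not tested, since each rests on 1 array per group. Serpina4-ps1 had a difference in log2 ratio of KO over WT, 6 minus 3 weeks, of -5.67, from -4.86 at 6 weeks and 0.81 at 3 weeks. Serpina9 had -3.59, from -2.07 at 6 weeks and 1.52 at 3 weeks. Serpina5 had a difference of at least 2.73, from a bound of 2.10 at 6 weeks and a ratio of -0.63 at 3 weeks. Its signals were near the lower limit of detection. Single spots of the dim Serpinb3c probe had an SD of 0.729 for that log2 ratio at 3 weeks, so the sign of Serpina5 there is not settled. With normexp and quantile normalization its 6-week log2 ratio was 0.58.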

How the results depend on the processing

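All 26 Serpin differences past 2-fold kept their direction in each alternative that gave a value, and 18 stayed past 2-fold in each. The others were those of Serpina3h, Serpina5, Serpinb1a, Serpinb3a and Serpinb7, whose cause was not tested. For a gene with a single probe measured on both arrays, only the other normalizations could move the ratio. The filters, the probe mean, the kept outlier spots and the authors' table repeat it almost exactly, so that sameness is no check. Of 86 counts under an alternative, 66 were within 1.5 times the main count. They include counts from the authors' table, which has the same scaling, and limma designs that called 0 members each. The share of all genes past the threshold moved with each setting and stands in parentheses. With normexp and quantile normalization, 2 members were higher in KO at 6 weeks (2.57%), 1 was lower at 3 weeks (0.993%), 0 were higher at 6 than 3 weeks in KO (2.68%) and 2 were lower in WT (2.33%). With only genes well above background on all 4 arrays, fewer genes remained, and 3 members were lower in KO at 6 weeks (3.04%), 0 at 3 weeks (0.949%), 1 was higher with age in KO (3.83%), 1 in WT (2.22%), and 1 lower with age in WT (3.23%). At 1.5-fold, 7 were higher in KO at 6 weeks (12.4%), 4 lower at 3 weeks (5.48%), 6 higher (13.3%) and 8 lower (13%) with age in KO, and 4 higher in WT (8.19%). At 3-fold, 1 was higher (2.85%) and 3 lower (1.92%) in KO at 6 weeks, 1 higher (1.71%) and 1 lower (1.43%) at 3 weeks, 0 higher with age in KO (2.65%) and 1 lower in WT (2.77%). With a trend in limma's variance prior, 4 genes were called for genotype, all higher in KO and none of them a Serpin gene. No paired analysis was possible because each group has 1 array, and for the same reason no replicate could be left out. Dim members are limited by signal over background: Serpinb13, Serpina12, Serpinb3a and Serpinb7 were well above background on 1 or 2 arrays only.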
